A study of Mus musculus with 2 samples.

Results

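Cycling T cells of the mouse small intestine were taken as barcodes that carried at least 2 unique molecular identifiers (UMIs, tags that each mark 1 captured RNA molecule) of the CD3 chains Cd3e, Cd3d and Cd3g together, at least 2 of the proliferation genes Mki67, Top2a and Birc5 together, and none of Epcam, the surface marker of epithelium. This rule found 148 cells, 59 in the control library and 89 in the model library, among 15242 kept cells (7329 control, 7913 model). Both groups were whole-transcriptome 10x Genomics libraries of dissociated mouse small intestine, taken without Peyer's patches and mesentery, and each group held 1 library, both labelled replicate 1. The series title ties the work to simulated microgravity, radiation and a compound named CB001. The labels do not give what was done to the model mice, how many mice were pooled, their strain, sex or age, or the stretch of gut. No difference between control and model therefore has a replicate check, no test was possible, and every interval is an exact 95% interval that covers counting error only.

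T cells of the gut lining, the intraepithelial lymphocytes, sit between epithelial cells and are mostly CD8 T cells that carry granzymes without further stimulation. Those termed natural carry CD8 as an alpha-alpha dimer, with a gamma-delta or an alpha-beta receptor, whereas induced CD8 T cells carry the CD8 alpha-beta dimer. When a T cell divides, E2F factors switch on the genes of DNA replication, and later the B-Myb and FoxM1 factors switch on the genes of mitosis, with NF-Y bound at CCAAT boxes and the MuvB core at the element TTTGAA. Mki67 coats mitotic chromosomes, Top2a untangles DNA strands, and Birc5 (survivin) is a part of the chromosomal passenger complex.

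Promoters of 3 of the genes that stood highest in cycling over non-cycling T cells are shown because they hold both of those elements. They were chosen after the matches were seen. Each run spans 150 bases before to 30 bases after the start of the RefSeq gene (build GRCm38.p6, not the build named for the counts), 5′ to 3′ on the gene's strand, with CCAAT and TTTGAA, or their reverse complements ATTGG and TTCAAA, in capitals. Ccnb2 (cyclin B2, which partners the mitotic kinase Cdk1) lies on the minus strand at chr9:70421525-70421704, Cenpf (a kinetochore protein) on the minus strand at chr1:189688057-189688236, and Cks1b (a small subunit of cyclin-dependent kinases) on the minus strand at chr3:89418262-89418441.
Ccnb2: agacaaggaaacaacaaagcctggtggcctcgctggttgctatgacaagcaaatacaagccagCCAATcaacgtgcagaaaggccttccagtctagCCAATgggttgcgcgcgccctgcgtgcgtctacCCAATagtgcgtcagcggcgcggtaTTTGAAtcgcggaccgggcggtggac
Cenpf: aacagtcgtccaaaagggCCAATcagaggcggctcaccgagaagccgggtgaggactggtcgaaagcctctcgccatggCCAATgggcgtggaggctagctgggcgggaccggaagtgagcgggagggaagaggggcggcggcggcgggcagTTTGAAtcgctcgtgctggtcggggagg
Cks1b: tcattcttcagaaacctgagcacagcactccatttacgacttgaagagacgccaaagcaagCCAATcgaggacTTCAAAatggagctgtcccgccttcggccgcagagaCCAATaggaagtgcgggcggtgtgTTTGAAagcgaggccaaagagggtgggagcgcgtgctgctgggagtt

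Counted on both strands of the same window, with matches free to share bases, CCAAT stood in 32 of the 46 G2 and mitosis genes that had a promoter in the table (69.6%) and TTTGAA in 29 (63.0%). Both elements stood in 23 of them (50.0%). Among the 34 S phase and DNA replication genes with a promoter, CCAAT stood in 20 (58.8%), TTTGAA in 5 (14.7%) and both in 3 (8.82%). Over all 27025 genes in the table the shares were 30.3% for CCAAT, 11.9% for TTTGAA and 3.35% for both. The E2F-type words TTTCCCGC and TTTGGCGC stood, one or the other, in 6 S phase promoters (17.6%), 2 mitosis promoters (4.35%) and 1.19% of all promoters. A match describes the letters of the window and is not a measured binding site. In the runs above, CCAAT began 87, 54 and 21 bases before the start in Ccnb2 and 132 and 71 bases before it in Cenpf, and TTTGAA began at base 5 (Ccnb2) and base 3 (Cenpf) counted from the start as base 1.

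In the control library 59 of 752 T cells cycled (7.85%, Clopper-Pearson interval 6.03 to 10.0). The model library had 89 cycling cells among 1493 T cells (5.96%, 4.81 to 7.28). The ratio of the shares was 0.760 (0.541 to 1.07), an interval that includes 1. After every cell was thinned to 2000 UMIs before the rule was applied, the shares were 47 of 681 (6.90%) and 88 of 1337 (6.58%). Of all kept cells they were 0.805% (0.613 to 1.04) and 1.12% (0.904 to 1.38), a ratio of 1.40 (0.994 to 1.98). That interval changed sides with the processing: the ratio among kept cells was 1.57 (1.09 to 2.29) at 2000 UMIs, 1.78 (1.45 to 2.21) with a limit of 1 proliferation UMI, and 0.997 (0.696 to 1.44) at a mitochondrial limit of 10%. T cells as a whole were 10.3% of kept control cells and 18.9% of kept model cells. Cycling cells were thus not a larger share of the T cells in the library that held more T cells, although the counts allow a ratio up to 1.07, and up to 1.39 at 2000 UMIs. Among cells with 2 or more Epcam UMIs and no CD3 UMI, the share with 2 or more proliferation UMIs was 20.4% (19.1 to 21.7) in control and 29.2% (27.6 to 30.8) in model. These epithelial shares were not repeated at equal UMIs, and epithelial cells without a proliferation UMI had medians of 4313 and 6638.5 UMIs.

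The control library held 61370270 UMIs and the model library 76701215, of which cycling T cells contributed 427486 and 528551. Cycling T cells were deeper than other T cells, with a median of 5517 UMIs per cell in control (988 to 24518) and 4632 in model (709 to 23608), against 2833 and 2579 in the 615 and 1229 T cells without a proliferation UMI, here termed non-cycling. Mitochondrial UMIs were a median of 3.10% and 2.62% of their RNA. The libraries shared 12 kept barcodes, none of them a cycling T cell. No doublet caller was run; 15 of the 59 control and 10 of the 89 model cells held 3 or more UMIs of epithelial, plasma or B cell genes. Without such cells the model over control calls described further on were 191 higher and 157 lower, of which 104 and 75 were among the 192 and 157 called with them. The cycling over non-cycling calls were then 275 higher and 102 lower, of which 250 and 65 were among the 353 and 132.

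The cells were chosen by their own counts of CD3, proliferation and Epcam UMIs, so these values are given as a description. Cells at the limit of exactly 2 proliferation UMIs numbered 18 in control and 28 in model, and a further 78 and 175 T cells fell just short with 1. The 26 control and 44 model cells with 10 or more proliferation UMIs formed the core, and the highest cell held 64 and 44. Top2a was seen in 86.4% and 77.5% of the cycling T cells, Mki67 in 69.5% and 82.0%, and Birc5 in 62.7% and 65.2%. Stmn1 (stathmin, a tubulin-binding protein of dividing cells), which the rule did not use, was seen in 61.0% and 65.2% of them, against 3.25% and 5.13% of non-cycling T cells. By class it was seen in 16.7% and 14.3% of cells with exactly 2 proliferation UMIs and in 92.3% and 100% of those with 10 or more. Nearly all cells of the core thus showed Stmn1, whereas most cells at the limit did not. As T cell genes outside the rule, the receptor chain Trbc2 was seen in 86.4% and 88.8% and the kinase Lck in 67.8% and 67.4%.

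The phases of the cell cycle were mixed in both libraries. At 2000 UMIs per cell, the median cycling T cell held 6 UMIs of the 40 S phase genes and 12 of the 51 G2 and mitosis genes in control (52 cells), and 4 and 11 in model (82 cells), against 2 and 1 in non-cycling T cells of both libraries. Mitosis UMIs exceeded S phase UMIs in 28 of 52 control and 48 of 82 model cells, the reverse held in 23 and 29, and 1 and 5 were equal. Because 11 and 18 cells lay within 1 UMI of equality, these are ranges and not types of cell. Without thinning, S phase genes reached 120 and 129 UMIs per 10000 and mitosis genes 204 and 319 in the highest cells.

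**Figure D1:**
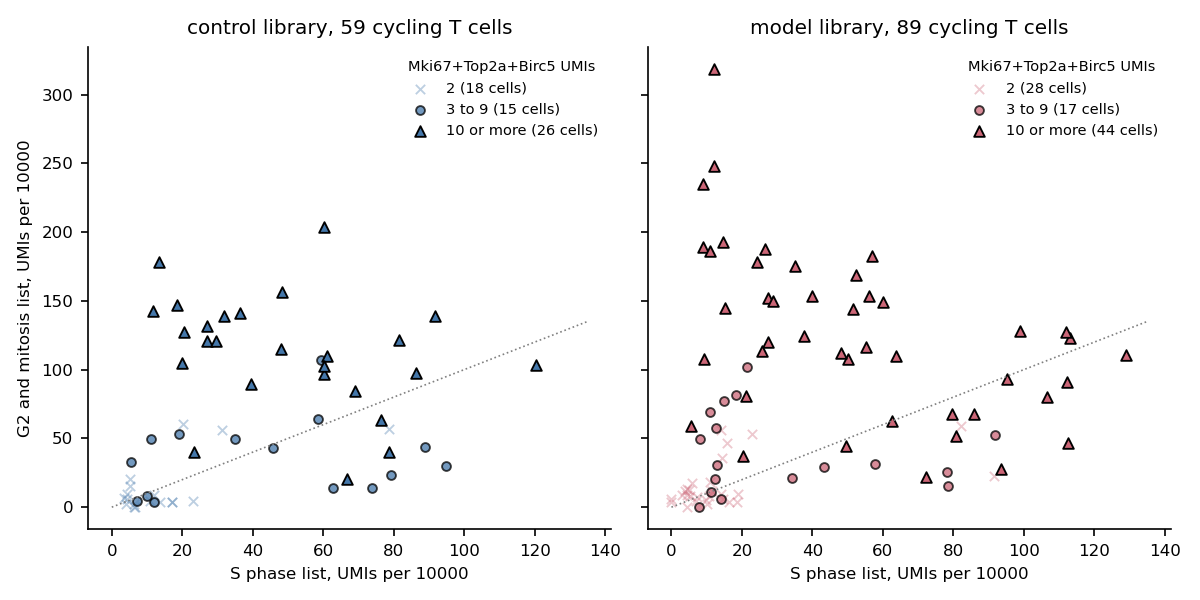
Each point is a cycling T cell, with UMIs of the S phase list per 10000 UMIs on the x axis and of the G2 and mitosis list on the y axis, control on the left and model on the right; symbols mark 2, 3 to 9, or 10 or more UMIs of Mki67, Top2a and Birc5, and the dotted line marks equal values. Cells with 10 or more of these UMIs spread along both axes up to 204 (control) and 319 (model) mitosis UMIs per 10000, while cells with exactly 2 sit mostly near the origin.

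Scaled to 1000000 UMIs of the population (CPM), S phase genes summed to 4047 in control and 4416 in model cycling T cells, against 930 and 1024 in non-cycling ones. Mitosis genes summed to 7626 and 8525 against 585 and 645. Dividing epithelial cells held 2116 and 2144 for the S phase list and 4358 and 3936 for the mitosis list, and replication-dependent histones summed to 3179 and 3988 in T cells against 1357 and 1211 in epithelium. The epithelial cells were picked by the same 2 proliferation UMIs at medians of 17952 and 17808 UMIs, a laxer limit per UMI than in T cells, and its part in these sums was not tested.

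Cycling and non-cycling T cells were next set against each other within each library. This contrast follows the rule, so its values describe the cells. Of 8398 genes with enough UMIs, 353 (4.2%) were at least 2-fold higher in both libraries with an interval excluding 1, and 132 (1.57%) were at least 2-fold lower. The called genes included 30 of 33 measured S phase genes, 46 of 47 mitosis genes and 15 of 18 histones. Median log2 ratios were 2.56 and 2.47 for S phase, 4.87 and 5.03 for mitosis and 2.96 and 2.50 for histones in control and model, beside −0.07 and −0.05 over all genes. The 1 mitosis gene not called was Pttg1 (securin), at 22 and 35 UMIs in cycling cells and ratios of 0.817 and 0.959.

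Pclaf, a partner of the replication clamp, led by the interval bound nearest to 1. It had 274 UMIs in cycling against 8 in non-cycling control T cells and 387 against 20 in model, ratios of 140 (70.0 to 327) and 117 (74.8 to 194). Ccnb2 had 102 against 2 UMIs in control and 139 against 8 in model, ratios of 208 (56.2 to 1744) and 105 (52.0 to 249). Stmn1 had 359 against 23 and 665 against 73 UMIs, ratios of 63.8 (41.8 to 102) and 55.2 (43.3 to 71.3). These transcripts were thus nearly absent from T cells without proliferation UMIs, and both libraries gave the same direction. The linker histone H1f5 had 391 against 43 and 694 against 81 UMIs, ratios of 37.2 (27.1 to 52.2) and 51.9 (41.2 to 66.2). Other genes of spindle and chromosome segregation stood between 43.1-fold and 118-fold higher, namely Nusap1 and Tpx2 (spindle assembly), Cenpf, and Ube2c (the ubiquitin carrier of the anaphase-promoting complex). Plk1 (the mitotic polo kinase) had 48 against 1 UMI in control and 52 against 5 in model. Cks1b, Ccna2 (cyclin A2), Rrm2 (a subunit of ribonucleotide reductase), H3c3 (a histone H3), Cep55 (abscission) and Hmmr (spindle) completed the 15 highest, with ratios of 39.7 to 251. Replication-dependent histone genes are near-identical copies, so the split of reads among them is uncertain.

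Replication genes had smaller ratios, and non-cycling T cells also held their transcripts. Pcna, the replication clamp, had 154 against 186 UMIs in control and 216 against 349 in model, ratios of 3.38 (2.71 to 4.21) and 3.75 (3.15 to 4.46). Mcm3, a subunit of the replicative helicase, stood 8.60-fold and 6.77-fold higher. Chromatin and tubulin genes of dividing cells were called in 21 of 22 cases, among them the tubulin Tubb5 (9.54-fold and 10.3-fold) and the DNA-bending protein Hmgb2 (7.96-fold and 6.67-fold).

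Genes of the G1 phase, which take a cell from rest to replication, did not share one direction. Of 18 measured, 5 were called higher and 1 lower. Cdk4 stood 2.44-fold and 3.11-fold higher and Cdk2 3.18-fold and 2.44-fold, as did the INK4 inhibitor Cdkn2c (3.70-fold and 6.78-fold). The D-type cyclin Ccnd2 had 123 UMIs against 1235 in control and 196 against 1989 in model, ratios of 0.407 (0.335 to 0.490) and 0.597 (0.513 to 0.692), and was past 2-fold in control only. The difference between libraries was not tested. Per non-cycling cell Ccnd2 was at 2.01 UMIs in control and 1.62 in model. Per cell with 2, 3 to 9 and 10 or more proliferation UMIs it was at 2.00, 1.93 and 2.23 in control. The same classes held 1.18, 1.88 and 2.98 in model. Ccnd1 had 0 and 2 UMIs in all cycling T cells. The antiproliferative gene Btg1 was the 1 G1 gene called lower, at ratios of 0.477 and 0.471. Of genes that supply growth, 5 of 19 for nucleotide synthesis were called higher (among them Dck, deoxycytidine kinase, 5.45-fold and 6.06-fold), 4 of 21 for ribosome biogenesis (Nop58, 2.99-fold and 3.58-fold) and 2 of 13 for glycolysis (Gapdh, 2.57-fold and 2.43-fold). None of 24 nuclear genes of respiration was called, with median log2 ratios of 0.63 and 0.46.

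Most genes of T cell function were not called. None of 22 receptor signalling genes was called in either direction; Trac, the alpha constant chain, stood at ratios of 1.24 (1.07 to 1.44) and 1.17 (1.03 to 1.32). Gzma, a tryptase of cytotoxic granules, had 9169 UMIs in cycling control and 13674 in cycling model cells, at ratios of 0.949 (0.927 to 0.970) and 1.05 (1.03 to 1.07) to non-cycling cells. At 2000 UMIs it was seen in 88.5% and 96.3% of cycling T cells, against 6.37% and 7.10% of cycling epithelial cells (median 17952 and 17808 UMIs before thinning), where free RNA can supply it. Gzmb, the second main granzyme, stood at 0.735 and 0.737. Perforin, Prf1, which opens the target membrane for granzymes, was scarce at 9 and 27 UMIs and stood at 0.245 (0.110 to 0.478) and 0.617 (0.399 to 0.919). The integrin Itgae (CD103), which holds lymphocytes to E-cadherin, stood at 0.857 and 0.779 and was seen in 78.0% and 88.8% of cycling T cells. Of 21 cytotoxic genes, 3 were called lower (Ccl4, Ccl5 and Tnf). Cxcr6, a chemokine receptor of tissue-resident T cells, had 19 UMIs against 237 in control and 34 against 459 in model, ratios of 0.328 (0.194 to 0.523) and 0.449 (0.307 to 0.636). These are ratios of CPM, and at 2000 UMIs per cell Cxcr6 in model stood at a log2 ratio of −0.56, short of 2-fold.

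Among the lower genes were the chemokines Ccl5 and Ccl4, which draw in other leukocytes. Ccl5 had 4404 UMIs in cycling and 44079 in non-cycling control cells, and 7939 and 103678 in model cells, which is 2.45-fold and 2.16-fold lower in CPM. Ccl4 was 2.77-fold and 3.01-fold lower. Per cell, however, Ccl5 was at 74.6 UMIs in cycling and 71.7 in non-cycling control cells, and at 89.2 and 84.4 in model cells, so it was not lower per cell. Ccl4 was at 9.10 and 9.87 per cell in control and 10.0 and 13.2 in model. As with Ccl5, the level per cell was not lower for Btg1 (9.88 and 8.12 in control, 7.96 and 7.40 in model) and the nuclear RNA Malat1 (95.6 and 85.1, 79.4 and 68.4). Cycling T cells averaged 7246 UMIs per cell in control and 5939 in model against 2840 and 2605 in non-cycling ones, and the part of RNA content, of capture and of the rule's choice of deeper cells in this gap was not tested. With every cell thinned to 2000 UMIs, Ccl5 in model stood at a log2 ratio of −0.79, Btg1 in model at −0.79 and Malat1 in control at −0.87, short of 2-fold.

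Other genes had fewer UMIs per cell in both libraries, though the levels per cell carry no interval. Bcl2, which blocks the mitochondrial route of apoptosis, had 50 UMIs against 772 in control and 91 against 1471 in model, 3.78-fold and 2.67-fold lower in CPM and 0.847 against 1.26 and 1.02 against 1.20 per cell. It was seen in 39.0% of cycling and 57.1% of non-cycling control cells. In model the shares were close, at 52.8% and 53.2%. The interleukin 7 receptor chain Il7r, a survival receptor of resting T cells, had 9 against 162 and 10 against 239 UMIs, 4.41-fold and 3.95-fold lower. The cytokine Tnf had 3 against 75 and 6 against 194 UMIs, and Gpr55, a lipid receptor, was 2.77-fold and 2.82-fold lower in CPM but close per cell in control (0.627 against 0.681, and 0.472 against 0.584 in model). Egr3 (a transcription factor induced by receptor signalling) and Tcp11l2 also stood among the 15 lowest, each with 6 or fewer UMIs in cycling cells, and at 2000 UMIs the difference of Egr3 in control was gone (log2 0.01). Bcl2 in model (log2 −0.82), Tnf in control (−2.02) and Tcp11l2 in control (−1.74) also lost their calls at 2000 UMIs. Gzma, in contrast, was at 155 UMIs per cycling and 64.2 per non-cycling control cell, and at 154 and 64.2 in model.

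**Figure D2:**
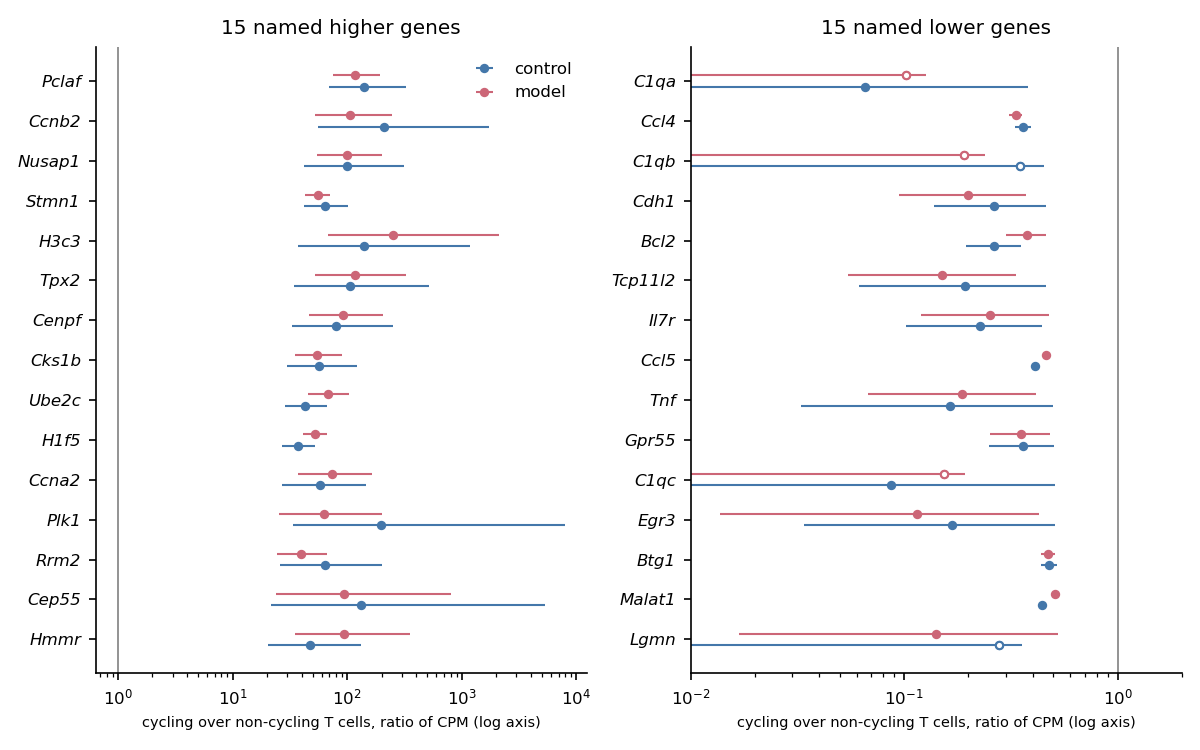
Ratio of CPM in cycling over non-cycling T cells (x axis, log scale) for the 15 highest and 15 lowest genes by the naming rule, control in blue and model in red, with 95% counting intervals; open symbols mark a population with no UMI, set against 3 UMIs. Every gene on the left has a ratio of at least 37.2 in both libraries, and genes on the right stand from 1.96-fold (Malat1, model) to 15.2-fold (C1qa, control) lower.

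The complement genes C1qa, C1qb and C1qc, made by macrophages, and Lgmn, a lysosomal protease, also stood among the lowest. C1q UMIs came from 13 of 615 non-cycling control cells (144 UMIs, 120 of them in 1 cell) and 25 of 1229 model cells (391 UMIs, 126 in 1 cell), and from 2 and 0 cycling T cells. Cdh1 (E-cadherin of epithelium) had 13 against 202 and 10 against 305 UMIs. Over the other cell types, epithelial markers summed to 1036 and 723 CPM in cycling and 1963 and 1382 in non-cycling T cells, 4 of 18 being called lower, and myeloid markers to 53.8 and 60.5 against 192 and 257. Per cell, the keratin Krt8 was at 0.593 and 0.592 UMIs per cycling and non-cycling control cell, and at 0.315 and 0.319 in model. Their part in the lower genes was not tested.

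Across classes of rising proliferation counts (0, 1, 2, 3 to 9, 10 or more UMIs), Stmn1 went from 13.2, 57.6 and 63.4 to 456 and 1237 CPM in control and from 22.8, 33.8 and 196 to 627 and 1642 in model. Hmgb2 went from 598 to 6695 and from 687 to 5608 CPM between the first class and the last. Ccl5 held 25237, 24769 and 22340 CPM in the first 3 control classes and then 8843 and 7079, and in model 32383, 32057 and 32049 and then 15807 and 11213. The step in Ccl5 CPM thus lay between the class of 2 and that of 3 to 9 UMIs. Stmn1 was already higher at 2 than at 0, from 5 UMIs in control (63.4 CPM, 20.6 to 148) and 15 in model. In control it was close at 1 and 2, and rose to 456 CPM at the same step as Ccl5 fell. Per cell, Ccl5 was at 97.9, 58.2 and 68.0 UMIs in the last 3 control classes and at 87.6, 84.5 and 92.0 in model. Median UMIs per cell in these classes were 4617.5, 5286 and 9170 in control and 2658.5, 3990 and 7011 in model. The part of depth in the step was not tested. Bcl2 went from 442 to 56.0 CPM in control and from 459 to 119 in model, without a reversal between neighbouring classes. Gzma showed no such course in CPM, with 22608 and 21982 CPM in the first and last control classes and 24662 and 24179 in model. Per cell it went from 64.2 to 211 UMIs in control and from 64.2 to 198 in model.

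**Figure D3:**
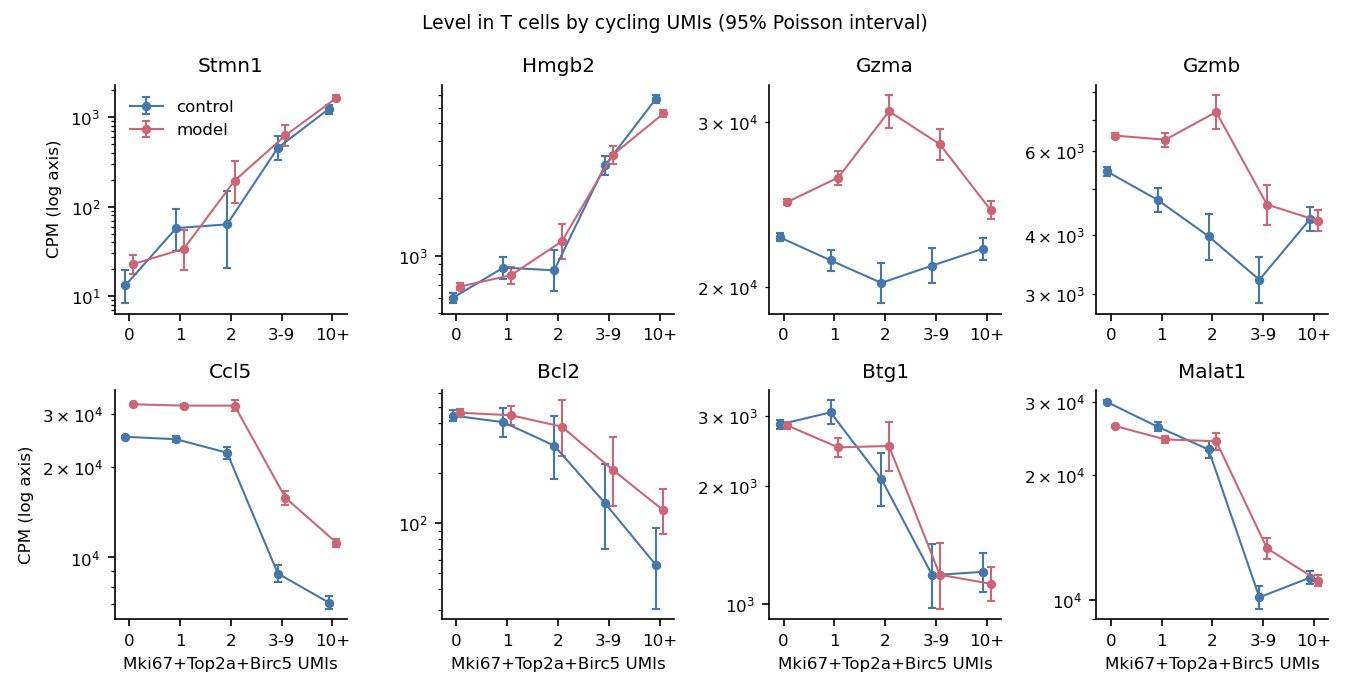
Level of 8 genes in T cells (CPM, log y axis, with 95% Poisson intervals) over classes of Mki67, Top2a and Birc5 UMIs on the x axis, control in blue and model in red. Stmn1 and Hmgb2 climb, Ccl5, Bcl2, Btg1 and Malat1 drop from the class of 2 to that of 3 to 9 UMIs in both libraries, and Gzma stays between 20210 and 30821 CPM in all classes.

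By coreceptor, the cycling T cells were mostly CD8 cells. At 2000 UMIs per cell, Cd8a without Cd8b1 was seen in 27 of 52 cycling T cells in control (51.9%, 37.6 to 66.0). In model it was seen in 52 of 82 (63.4%, 52.0 to 73.8), beside 57.6% and 61.1% of non-cycling T cells in the libraries. Cd8b1, the CD8 beta chain, was seen in 11.5% and 7.32%, and in 33 of 436 and 99 of 904 non-cycling T cells. Cd4 without CD8 was seen in 0 of 52 and 0 of 82, which allows shares up to 6.85% and 4.40%, against 3.67% and 3.43% of non-cycling T cells. Cd4 together with CD8 was seen in 1 of the 82 model cells. Without thinning Cd4 was seen in 0 of 59 control and 3 of 89 model cells, 1 of them without CD8. Trdc without beta chain transcripts was seen in 3.85% and 6.10%, and 17 of 52 and 18 of 82 showed no transcript that would place them. The intervals of cycling and non-cycling cells overlapped in each of these classes. Counted without thinning, 15 of 76 CD8 alpha-beta control cells cycled (19.7%, 11.5 to 30.5) and 14 of 171 model cells (8.19%, 4.55 to 13.4), whereas CD8 alpha-alpha cells cycled at 7.13% (4.93 to 9.91) and 7.19% (5.64 to 9.02). The cycling CD8 alpha-beta cells were deep, with medians of 9276 and 6299 UMIs against 5248 and 4225 in the cycling CD8 alpha-alpha cells, and the part of depth in these shares was not tested.

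By receptor, at the same thinning, Trac alone was seen in 38.5% of cycling control cells (25.3 to 52.98) and 42.7% of cycling model cells (31.8 to 54.1), against 27.8% (23.6 to 32.2) and 35.0% (31.9 to 38.2) of non-cycling ones. Trdc alone was seen in 28.8% and 20.7%, against 131 of 436 and 252 of 904 non-cycling cells. Both chains were seen in 13.5% and 23.2% and neither in 19.2% and 13.4%. The levels that follow use the same classes without thinning. Cycling cells with only Trac carried more Cd8b1 (197 and 122 CPM) than those with only Trdc (22.6 and 0 CPM). Cd28 and Cd5, costimulatory and receptor-tuning genes of conventional T cells, had no UMI in the 9 control and 10 model cells with only Trdc. Both were scarce elsewhere too. Among cells with only Trac, Cd28 was seen in 3 of 24 control and 5 of 37 model cells, and Cd5 in 5 and 4. With both chains, neither gene had a UMI in 18 control cells, and each was seen in 1 of 36 model cells. The difference between classes was not tested. Gzma was seen in at least 88.9% of every such class with Trac or Trdc, so Gzma transcripts were common to these classes. The classes are not clean receptor types. Among cells with only Trdc, the beta chain Trbc2 was seen in 8 of 9 in control and 8 of 10 in model.

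**Figure D4:**
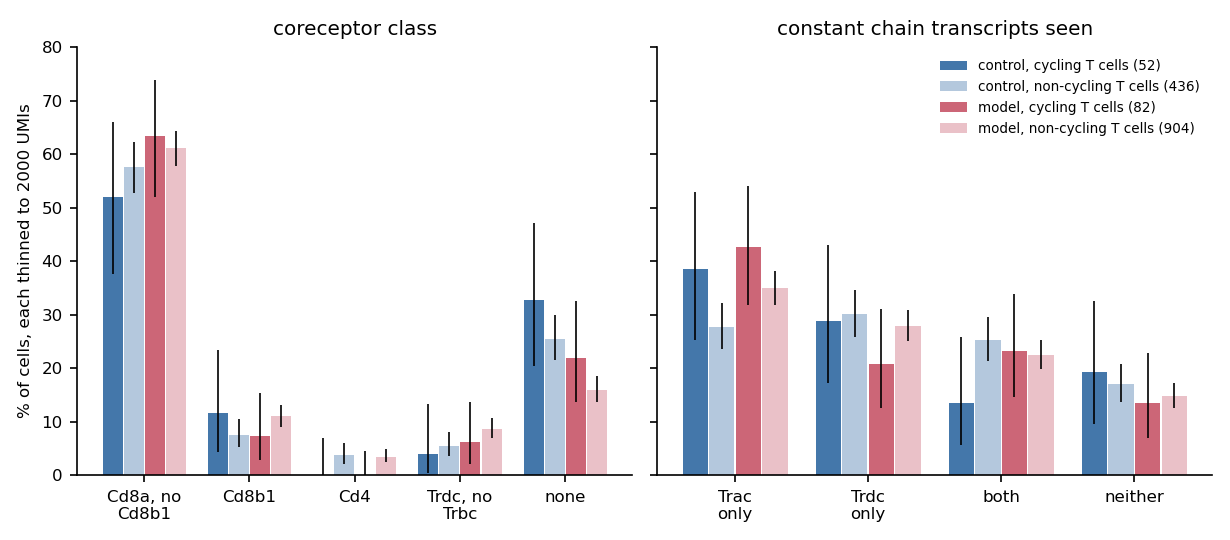
Share of cells (y axis, percent, bars from 0 with Clopper-Pearson 95% intervals) in each coreceptor class on the left and receptor constant chain class on the right, at 2000 UMIs per cell, for cycling (full colour) and non-cycling (pale) T cells of control (blue) and model (red). Cells with Cd8a and no Cd8b1 form the tallest group in all 4 populations, from 51.9% to 63.4%, and Cd4 without CD8 is at 0 in both cycling populations.

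Model and control were then compared within the cycling T cells. Of 5876 genes with at least 20 UMIs, 192 (3.27%) were at least 1.5-fold higher in model and 157 (2.67%) lower with an interval excluding 1, and the median log2 ratio over all of them was −0.01. Without thinning and over all cycling T cells, the medians of the proliferation lists differed little. Of 36 S phase genes 4 were higher and none lower (median log2 0.11), and of 51 mitosis genes 4 were higher and none lower (median 0.16), beside the 3.27% higher and 2.67% lower over all genes. The higher ones were Tyms (thymidylate synthase, 33 and 71 UMIs, ratio 1.74), Rfc4 (a clamp loader subunit), E2f8 (an E2F repressor) and Ung (uracil removal from DNA), and the spindle genes Kif20b (27 and 69 UMIs, ratio 2.07), Kif4, Prc1 (62 and 127, ratio 1.66) and Cenpe. Without cells that carried other lineages' UMIs the S phase median was −0.18, the opposite sign, and at 2000 UMIs it was −0.05. The mitosis median was 0.41 at 2000 UMIs, 0.42 without the 3 highest cells per gene and 0.097 with 3 proliferation UMIs. Stmn1 had 359 and 665 UMIs, a ratio of 1.498 (1.32 to 1.71). H1f5 had 391 and 694, a ratio of 1.44 (1.27 to 1.63). Both were just under the limit for a call. Stmn1 gained the call at 2000 UMIs, with a log2 ratio of 0.73 (0.36 to 1.11). It also gained it without cells with B cell genes (0.66) and, barely, with scaling by the median ratio (0.590). Without the 3 highest cells per gene, a larger part of the control cells, Stmn1 (0.75) and H1f5 (0.63) both gained it. Of the G1 genes, the kinase Cdk6 was higher (18 and 49 UMIs, ratio 2.20, 1.26 to 4.02) and Cdk2 lower (35 and 23, ratio 0.531, 0.300 to 0.925). Without cells that carried other lineages' UMIs, Cdk6 stood at a log2 ratio of 0.85 (−0.17 to 1.96), short of a call.

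Among genes seen in many cells, Fcer1g, the signalling adaptor shared by Fc and innate receptors, was higher in model. It had 264 UMIs in control and 578 in model, a ratio of 1.77 (1.53 to 2.06), while non-cycling T cells gave 1.25 (1.19 to 1.31). At 2000 UMIs it was seen in 46.2% and 70.7% of cycling T cells and in 1.39% and 1.33% of cycling epithelial cells. Non-cycling T cells showed it in 63.1% and 70.8%. Cycling and non-cycling shares were thus close in model, and the lowest share was that of cycling control cells. Tyrobp (DAP12), a similar adaptor, had 59 and 137 UMIs, a ratio of 1.88 (1.37 to 2.59), and Klrd1 (CD94, of the NKG2 receptors) 112 and 235, a ratio of 1.70 (1.35 to 2.14). Fcer1g stood at 885 CPM in control and 1386 in model among cycling cells with Cd8a and no Cd8b1, and at 251 and 184 CPM among those with Cd8b1, and the first class was also the larger part of the model cells. The part of that mixture in the difference was not tested. Rgs1, which damps chemokine receptor signalling, had 884 and 1657 UMIs, a ratio of 1.52 (1.40 to 1.65) beside 1.25 in non-cycling cells, and Ccl5 4404 and 7939, a ratio of 1.46 (1.41 to 1.51) beside 1.28. With a limit of 3 proliferation UMIs, Rgs1 and Klrd1 each stood at a log2 ratio of 0.51, short of a call. Ccl5 then stood at 0.68 and gained the call.

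Some genes were higher in the cycling cells of the model library without a like ratio in its non-cycling T cells. Cited4, a coactivator that binds CBP and p300, had 6 UMIs in control and 43 in model, a ratio of 5.80 (2.46 to 16.7), and was seen in 10.2% and 37.1% of cycling T cells, whereas non-cycling cells gave 1.08 (0.893 to 1.31). Sirt2, a cytoplasmic deacetylase, had 6 and 31 UMIs, a ratio of 4.18 (1.72 to 12.3) beside 1.01. Aggf1 had 6 and 30 UMIs, a ratio of 4.04 (1.66 to 11.9) beside 1.04. Dgkz, a diacylglycerol kinase that damps T cell receptor signalling, had 20 and 59 UMIs, a ratio of 2.39 (1.42 to 4.18) beside 0.957, and Ctdspl2 11 and 40, a ratio of 2.94 (1.48 to 6.36) beside 0.758. These differences between cycling and non-cycling cells were not tested themselves. At 2000 UMIs Dgkz stood at a log2 ratio of 0.93 (−0.36 to 2.41), short of a call. Irf8, a transcription factor of lymphoid and myeloid cells, had 21 and 65 UMIs, a ratio of 2.50 (1.51 to 4.31). On survival genes, Bcl2l11 (Bim, which promotes apoptosis) had 26 and 69 UMIs, a ratio of 2.15 (1.35 to 3.51), and the death receptor Fas 8 and 25, a ratio of 2.53 (1.10 to 6.48). Prdm1 (Blimp-1, a regulator of effector and resident T cells) had 19 and 51 UMIs, a ratio of 2.17 (1.26 to 3.89).

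Some B cell genes were higher in the cycling T cells of the model library, from few cells. Ebf1, a factor that sets B cell identity, had 0 UMIs in control and 31 in model, at least 8.36-fold higher against a floor of 3 UMIs (counting error reaches down to 6.40-fold), and all 31 lay in 3 cells. In non-cycling T cells Ebf1 was lower in model, with 18 and 7 UMIs, a ratio of 0.212 (0.0749 to 0.532). H2-Eb1, an MHC class II chain, had 3 and 60 UMIs, 48 of the 60 in 3 cells, and Tcf4 (E2-2) 14 and 48, 20 of the 48 in 3 cells. Cells with 3 or more UMIs of Cd79a, Ms4a1, Ebf1 and Pax5 together numbered 0 of 59 in control, which allows up to 6.06%, and 4 of 89 in model (4.49%, 1.24 to 11.1), with a median of 12182 UMIs. The B cell receptor component Cd79a had no UMI in the control cells and 29 in the model cells, and plasma cell markers summed to 3214 and 6751 CPM. Without those 4 cells, 195 genes were higher and 145 lower, Irf8 stood at a log2 ratio of 0.82 in place of 1.32 and Tcf4 at 0.96 in place of 1.47.

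The genes lower in model included some seen in many cells. Scin, an actin-severing protein, had 101 UMIs in control and 31 in model, a ratio of 0.248 (0.160 to 0.374), and was seen in 49.2% and 20.2% of cycling T cells; non-cycling cells gave 0.388 (0.312 to 0.480). Cd226 (DNAM-1, an activating receptor) had 57 and 27 UMIs, a ratio of 0.383 (0.233 to 0.616) beside 1.05 in non-cycling cells. The AP-1 subunit Junb had 780 and 607 UMIs, a ratio of 0.629 (0.565 to 0.701) beside 0.976, and Klf6 369 and 274, a ratio of 0.601 (0.512 to 0.704) beside 0.930. Without the 3 cells that held most of each, Junb stood at a log2 ratio of −0.57 and Klf6 at −0.40, short of a call. Of 23 immediate early and heat shock genes 4 were lower and none higher (median log2 −0.26), beside 2.67% lower over all genes, and in non-cycling T cells 1 was higher and 3 were lower. The chaperone Hspa1a had 49 and 26 UMIs, 30 of the 49 in 3 control cells. At 2000 UMIs its log2 ratio was −1.10 (−2.37 to 0.12), short of a call. Cd69, an early activation and retention receptor, had 214 and 162 UMIs, a ratio of 0.612 (0.496 to 0.754), and Nr4a3, induced by receptor signalling, 59 and 35, a ratio of 0.480 (0.307 to 0.741). Of 21 receptor signalling genes 3 were lower and none higher (Cd28, Skap1 and Trbc1, median −0.16), beside the same 2.67%, and none in non-cycling T cells. Cd28 rested on few cells, as its 28 UMIs in control cells with only Trac came from 3 cells. Without cells with B cell genes Trbc1 stood at a log2 ratio of −0.55, short of a call. Trbc1 and Trbc2 are near-identical, so their split is uncertain. The others of the 12 lowest were Hccs (heme attachment to cytochrome c), Dgat1 (triglyceride synthesis), Iws1 (transcript elongation) and Spdl1 (a dynein adaptor of the kinetochore), at ratios of 0.379 to 0.468. In non-cycling T cells Dgat1 was lower too, at 0.634 (0.540 to 0.745), beside 0.955 for Hccs and 1.00 for Iws1. Dgat1 in cycling T cells was at 0.216 of its level in epithelial cells without a proliferation UMI, and the part of epithelial RNA was not tested.

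Cytokine genes rested on few cells. Il17a had 39 UMIs in control and 0 in model, and all 39 lay in 1 control cell. Xcl1, a chemokine for cross-presenting dendritic cells, had 115 and 61 UMIs, a ratio of 0.429 (0.309 to 0.590), with 89 and 51 of them in 3 cells, and without cells of mixed lineage its log2 ratio turned to 1.24. It stood at 368 and 510 CPM in cycling cells with Cd8b1 and at 58.3 and 35.8 CPM in those with Cd8a alone. Ifng had 34 and 14 UMIs, 27 of the 34 in 3 control cells, and was short of a call without the 3 highest cells (log2 −0.79) and without cells of mixed lineage (−0.96). Areg, a growth factor for epithelium, had 2 and 51 UMIs, 39 of the 51 in 1 cell.

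**Figure D5:**
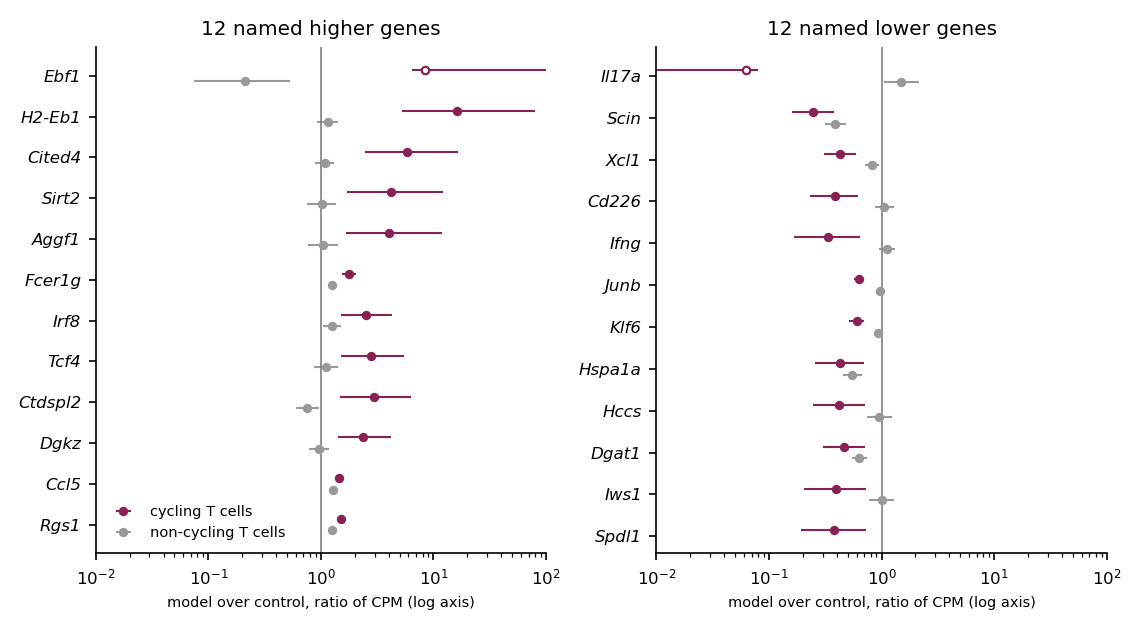
Ratio of CPM in the model over the control library (x axis, log scale) for the 12 highest and 12 lowest genes by the naming rule in cycling T cells (purple), with the same ratio in non-cycling T cells (grey) and 95% counting intervals; open symbols mark a library with no UMI, set against 3 UMIs, and Spdl1 had too few UMIs in non-cycling cells for a ratio. Cited4, Sirt2 and Aggf1 stand at 4.04 to 5.80 in cycling cells and at 1.01 to 1.08 in non-cycling cells, whereas Scin is low in both.

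Calls on the remaining lists are given beside the 3.27% higher and 2.67% lower over all genes. Residency and gut homing genes gave 4 higher (Rgs1, Rgs2, P2rx7 and Prdm1) and 1 lower (Cd69) of 23 (median log2 0.18). Activation and growth factor receptor genes gave 4 higher (among them Tnfrsf9, a costimulatory receptor, 23 and 54 UMIs, ratio 1.90) and 1 lower (Cd44, 39 and 24 UMIs, ratio 0.498) of 21 (0.17), and NK and ILC genes 2 higher of 6 (0.63). Plasma cell markers gave 5 higher of 7 (0.88), beside 1 in non-cycling T cells, among them Igkc at 837 and 2338 UMIs (ratio 2.26). Prdm1 belongs to this list as well as to the residency list, so its call is counted in both. Its ratio without cells with B or plasma cell UMIs is not given. Leaving out cells that held any UMI of B or plasma cell genes kept 51 control and 77 model cells. In those, Igkc stood at 1787 CPM in control and 1302 in model, so it was lower in model. Igha (665 and 484 CPM) and Jchain (316 and 118 CPM) were then also lower in model. Type I interferon targets gave 2 higher and none lower of 13 (median log2 0.06), cholesterol synthesis none of 16 (0.24), and p53 targets 1 higher of 12 (−0.22), with the inhibitor Cdkn1a at 16 and 9 UMIs (ratio 0.455, 0.177 to 1.09). Nuclear genes of respiration gave 3 lower of 24 (−0.20) and mitochondrially encoded genes 3 lower of 14 (−0.35), in a library whose kept cells had a median mitochondrial share of 5.38% against 10.8% in control. Epithelial markers gave 4 lower of 13 (−0.66), and their part in any result was not tested.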

How the data were processed

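The authors deposited whole-number UMI counts per gene and barcode, not normalised. Counting used Cell Ranger 7.0.1 per the file headers, while the submitters' processing notes name version 4.0 and the build GRCm39. Which annotation was used, and whether reads in introns were counted, is not given in the sources used here. Kept barcodes had 500 or more UMIs, 200 or more genes and no more than 25% of UMIs from mitochondrial genes. UMIs were summed per library and population and scaled to CPM. Ratios carry exact conditional binomial intervals and shares Clopper-Pearson 95% intervals (scipy 1.17.1, numpy 2.4.6, pandas 2.3.3, matplotlib 3.10.9). A gene needed 20 UMIs. A call needed a ratio of 1.5 (model over control) or 2 in both libraries (cycling over non-cycling), or its inverse, with an interval excluding 1, and an absent gene was set against 3 UMIs. Thinning drew 2000 UMIs from each cell (seed 1), leaving out 7 cycling cells of each library. Named genes had at least 30 UMIs (model over control: in the higher library, and at least 0.2 of their highest level in any population) and ranked by the interval bound nearest 1, 15 or 12 each way, without receptor, immunoglobulin, mitochondrial, ribosomal protein, unnamed-locus and rule genes; up to 6 members of each of 30 lists could also be named. Genes split by lineage or receptor class were chosen after their values were seen. Promoters came from RefSeq, GRCm38.p6; 12 of the 15 highest genes matched (not Ccna2, Stmn1 and Tpx2). The cells and lists were chosen with earlier results of these data known. The scripts were tested on simulated counts. A few results are not reported here.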

Additional observations from a re-analysis of the deposited data

How the results depend on the processing

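No paired analysis was possible because each group held 1 library, so the shared replicate number 1 pairs nothing. With 1 library a group and 59 and 89 cells, depth and cell number limit most genes to large ratios. Of 168 repeats over the 24 genes named for model over control, 155 kept direction and call, 9 lost the call, 3 gained it and 1 reversed: Xcl1, at a log2 ratio of 1.24 without cells with other lineages' UMIs. Of 210 repeats for cycling over non-cycling, 198 were kept, 11 lost the call and 1 reversed: Egr3 in control, at 0.0089 at 2000 UMIs. Where no construction is named, the cause was not tested.

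The share among T cells was 18.2% and 17.7% with a limit of 1 proliferation UMI, and 5.45% and 4.09% with 3. Among kept cells it was 1.87% and 3.34% with 1, 0.559% and 0.771% with 3, 1.48% and 1.48% at a mitochondrial limit of 10% and 2.35% and 2.47% without cells with other lineages' UMIs, which also shrinks the total; thinned before the rule, model was 1.43%. Model over control calls (192 and 157) were 69 and 76 at 2000 UMIs (25 and 27 shared), which leaves 2317 genes tested, 104 and 88 with 50 UMIs a gene, and 315 and 79 without the 3 highest cells per gene, a larger part of 59 cells than of 89. Cycling over non-cycling, 211 were higher with 50 UMIs a gene, and 133 higher and 12 lower at 2000 UMIs (120 and 8 shared). Median scaling gave 398 and 95 for 353 and 132.

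List medians, model over control, moved for S phase (−0.18 without other lineages' UMIs, −0.046 at 2000 UMIs), mitosis (0.41 at 2000 UMIs, 0.42 without the 3 highest cells, 0.097 with 3 proliferation UMIs), residency (−0.098 at 2000 UMIs), interferon targets (−0.099 at 2000 UMIs), respiration (−0.058 without the 3 highest cells), and, without other lineages' UMIs, ribosome biogenesis (−0.23) and epithelial markers (0.22). Coreceptor shares followed the depth they were read at. Not thinned, CD8 alpha-beta was 25.4% and 15.7%, CD8 alpha-alpha 77.5% in model, Trdc without beta chain transcripts 1.12% in model, and 18.6% and 2.25% were unplaced. That 1.12% was 1 of 89 cells, the shallowest at 709 UMIs, whereas Trdc itself was seen in 51.7% of the model cells. It is thus not a count of gamma-delta cells. At 1000 UMIs CD8 alpha-alpha was 31.0% and 42.5%, and 55.2% and 39.1% were unplaced.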

Other observations

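Ighm, the immunoglobulin mu chain, was read in T cells of both libraries more often than in epithelium of the same libraries. At 2000 UMIs it was seen in 8 of 52 cycling T cells in control (15.4%, 6.88 to 28.1) and 20 of 82 in model (24.4%, 15.6 to 35.1), and in 88 of 436 and 199 of 904 non-cycling T cells. Cycling epithelial cells showed it in 0.970% and 1.11%. Without cells that held UMIs of B or plasma cell genes the shares were 17.8% and 25.7% of cycling T cells, 75 of 383 and 175 of 796 among non-cycling T cells, and 0.781% and 0.386% of cycling epithelial cells. Igha, the chain of the IgA that fills the gut wall, was seen in 32.7% and 56.1% of cycling T cells, in 60.1% and 65.3% of non-cycling T cells and in 39.1% and 43.4% of cycling epithelial cells. Ighm was chosen after its values were seen, and no source of it was tested.

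Actb, the cytoskeletal beta-actin, was at 114 UMIs per cycling and 22.6 per non-cycling control T cell, and at 70.2 and 15.9 in model, a wider gap than that of total UMIs (7246 against 2840 and 5939 against 2605). It was chosen after its values were seen.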
